A study of Mus musculus with 9 samples.

Results

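The genes described here carry cyclic AMP, protein kinase C and calmodulin-dependent kinase signals. They were chosen by symbol from the protein-coding genes of the GENCODE vM21 mouse annotation as those beginning with Adcy and a number, or with Pde, Prka, Prkc or Camk and a further letter or number. The rule found 73 autosomal genes of 20807. The regions assigned to them are the differentially methylated regions (DMRs) of the deposited table that overlap the gene body or the 1000 bp upstream of it. There were 90 such DMRs of 12845 listed on the autosomes, and 12949 listed in all. All positions are those of GRCm38 (mm10).

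DNA methylation was measured in the hypothalamus of male C57/Bl6 pups on postnatal day 6 by methylated DNA immunoprecipitation (meDIP), which sequences the fragments pulled down by an antibody against methylated cytosine. Modified maternal separation (MMS) pups had daily sessions of 1.5 h away from the dam between postnatal days 4 and 6, in which they were kept warm and handled repeatedly to keep them supine. Males of the same litters served as control, and tissue was taken just after the last separation. DNA of 10 animals per group was pooled into 3 control and 3 MMS libraries, next to 2 input libraries and 1 IgG library, so that no library stands for a single pup. The labels give no difference in strain, allele or drug between the groups. The tissue label could not be checked against marker genes in these methylation values, and a change of methylation within cells cannot be told apart from a change in the mix of cell types.

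Adenylyl cyclases make cyclic AMP when G proteins report a bound hormone or transmitter. Cyclic AMP frees the catalytic subunits of protein kinase A (PKA) from their regulatory subunits, and phosphodiesterases end the signal by hydrolysing cyclic AMP or cyclic GMP. Protein kinase C (PKC) answers to diacylglycerol and, in its conventional isoforms, to calcium, while the CaM kinases answer to calcium bound to calmodulin. In hypothalamic neurons these routes lie downstream of many peptide and monoamine receptors and reach transcription through CREB.

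Each DMR comes with one mean of normalised reads for the control group and one for the MMS group, both on the log2 scale and both the authors' own. The values of single libraries and their depth were not part of the table used here. No spread between libraries could therefore be given and no test between groups was made. Every DMR had already passed the authors' threshold for a difference, so what the rows share is that they differ, and the direction, size and place of the difference are what can be described. Differences below are MMS minus control. The lowest control mean in the table was -0.17, or 0.889 reads, and the lowest MMS mean was -0.24, or 0.847 reads. A difference against a group at that level is set by where the level lies.

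Some of the sequences behind the values are shown here as the reference has them, on the plus strand, with CpG sites in capitals. The DMR upstream of Pde5a is shown whole because it was the single one placed before a gene's start. For Camk1d and Pde7b, which had the largest difference in each direction, and for Pde11a, whose lower group mean was the highest of the 90, the 150 bases with the most CpG are given. The DMRs of Adcy3 and Prkce are whole and were among the richest in CpG. The Prkaca window covers part of a coding exon.
Pde5a, chr3:122728312-122728599: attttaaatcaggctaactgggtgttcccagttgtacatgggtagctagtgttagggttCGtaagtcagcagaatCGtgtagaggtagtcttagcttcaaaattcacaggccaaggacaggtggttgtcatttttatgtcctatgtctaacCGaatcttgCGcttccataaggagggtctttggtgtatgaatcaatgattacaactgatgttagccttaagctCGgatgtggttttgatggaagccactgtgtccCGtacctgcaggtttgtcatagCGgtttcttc
Camk1d, chr2:5681182-5681331: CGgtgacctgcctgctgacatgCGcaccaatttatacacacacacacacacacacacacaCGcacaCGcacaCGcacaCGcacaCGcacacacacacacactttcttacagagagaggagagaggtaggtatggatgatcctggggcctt
Pde7b, chr10:20502850-20502999: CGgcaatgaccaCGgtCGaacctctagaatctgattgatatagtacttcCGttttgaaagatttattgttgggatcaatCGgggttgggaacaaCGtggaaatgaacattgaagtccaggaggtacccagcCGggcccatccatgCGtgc
Pde11a, chr2:76164009-76164158: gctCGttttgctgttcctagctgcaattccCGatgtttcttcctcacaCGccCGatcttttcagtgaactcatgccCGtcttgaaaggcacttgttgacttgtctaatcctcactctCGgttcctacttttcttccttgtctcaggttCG
Adcy3, chr12:4208525-4208700: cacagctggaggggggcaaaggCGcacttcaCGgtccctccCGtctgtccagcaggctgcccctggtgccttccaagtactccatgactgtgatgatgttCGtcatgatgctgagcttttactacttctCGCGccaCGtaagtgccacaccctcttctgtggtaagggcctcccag
Prkce, chr17:86286692-86286847: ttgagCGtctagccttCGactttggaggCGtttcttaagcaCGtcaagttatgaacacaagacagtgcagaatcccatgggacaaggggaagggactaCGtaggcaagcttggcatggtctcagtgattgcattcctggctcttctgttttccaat
Prkaca, chr8:83994753-83994902: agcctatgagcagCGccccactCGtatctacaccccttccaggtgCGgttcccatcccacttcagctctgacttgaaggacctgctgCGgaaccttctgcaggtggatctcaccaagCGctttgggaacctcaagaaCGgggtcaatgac
The Pde5a sequence holds 7 CpG in 288 bases and the Pde7b window 8 in 150. In the Camk1d window 5 of the 7 CpG sit inside a run of CA repeats. The Adcy3 sequence has 7 CpG in 176 bases, including a CGCG run, and the Prkce sequence 5 in 156.

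Of the 73 genes, 37 (50.7%) held at least 1 DMR. Over all autosomal protein-coding genes the share was 20.1%. The signalling genes are long, with a median of 83.4 kb against 17.6 kb for all genes, and in both sets the share of genes with a DMR was higher among longer genes. None of the 5 signalling genes under 10 kb held a DMR, where the share over all genes of that length was 3.76%. From 10 to 30 kb it was 3 of 14 genes (21.4%) against 13.7%, and from 30 to 100 kb 10 of 23 (43.5%) against 30.7%. From 100 to 300 kb it was 13 of 19 (68.4%) against 59.7%, and over 300 kb 11 of 12 (91.7%) against 82.3%. Within a length class the signalling genes thus lay nearer to the other genes than the pooled shares do. Per 100 kb of gene the signalling genes held 0.803 DMRs and all genes 0.65. The density of the signalling genes was above that of all genes from 10 to 30 kb (1.15 against 0.817), from 30 to 100 kb (1.37 against 0.749) and over 300 kb (0.757 against 0.457), and below it under 10 kb (0 against 0.788) and from 100 to 300 kb (0.621 against 0.682). These are counts with no test.

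**Figure D1:**
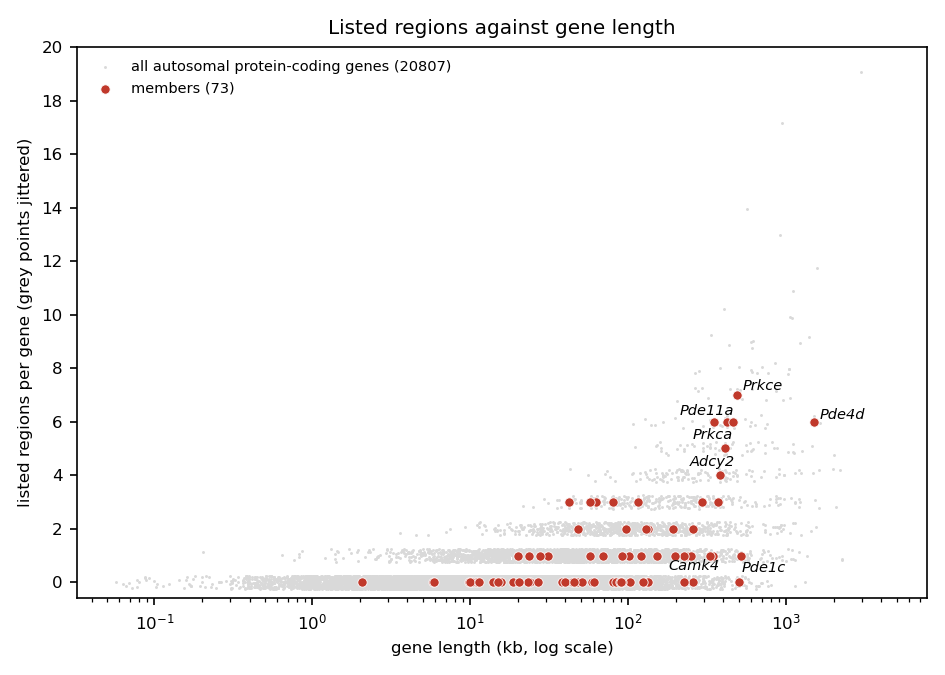
Number of DMRs per gene against gene length in kb on a log scale, with the 73 signalling genes in red and all 20807 autosomal protein-coding genes in grey, jittered vertically. Prkce had the most of the signalling genes with 7, Pde4d had 6 over about 1500 kb, and Pde1c, at 499 kb, had none.

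The higher mean was that of the MMS group in 50 of the 90 DMRs and that of the control group in 40. The share higher in MMS was 55.6%, with an exact 95% binomial interval of 44.7 to 66.0 that covers counting error only, and over all autosomal DMRs it was 62.4%. The majority turned with the choice of DMRs, to 40.0% higher in MMS where both group means were above their lowest values (45.1% over all autosomal DMRs). It was 49.3% among DMRs of at least 300 bp, and 75% at a log2 difference of at least 2 (80.5% over all autosomal DMRs). The 2 directions differed in level. In DMRs higher in MMS the median mean was 4.28 in MMS and 0.70 in control, or 19.4 and 1.62 reads. The control group lay within 0.5 of its lowest value in 24 of these 50 (48.0%) and exactly on it in 20. In DMRs higher in control the medians were 5.11 in control and 3.33 in MMS, or 34.4 and 10.1 reads. The MMS group lay within 0.5 of its lowest value in 1 of these 40, a DMR of Pde3a, and exactly on it in 0. The median difference was 3.28 in the first kind and -1.56 in the second. DMRs higher in MMS were thus often places with few reads in control, and those higher in control were mostly places with reads in both groups. All autosomal DMRs showed the same split, with the lower group within 0.5 of its lowest value in 52.6% and 4.61%.

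**Figure D2:**
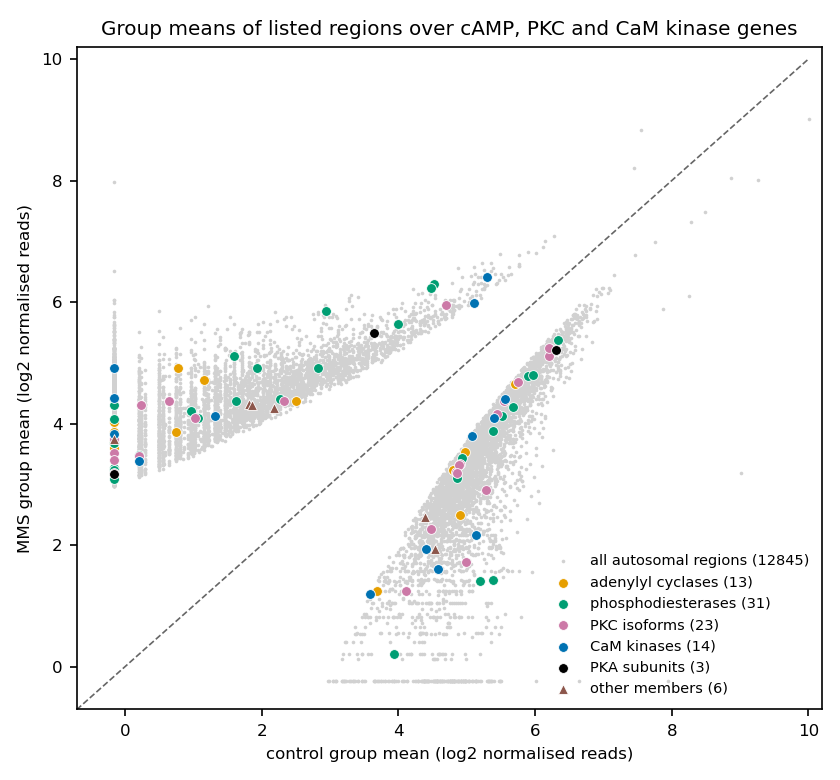
Control group mean against MMS group mean of each DMR in log2 normalised reads, coloured by gene family, with all 12845 autosomal DMRs in grey and equality dashed. The column of points at the left edge is the control mean of -0.17, where 20 of the 50 DMRs higher in MMS lie, and the empty band along the diagonal holds no DMR because only regions past the authors' threshold are listed.

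Adenylyl cyclases held 13 DMRs in 6 of 10 genes, with MMS higher in 8 and control in 5, or 1.03 per 100 kb. For this and each family below, the values over all autosomal protein-coding genes were 20.1% of genes with a DMR and 0.65 per 100 kb. Of the DMRs of all these genes 62.0% were higher in MMS. Gene lengths were not matched by family, and the families were not tested. Adcy2, a cyclase stimulated by G protein beta-gamma subunits, spans chromosome 13 from 68620043 to 68999541 and had 4 DMRs, all in introns. The 3 nearest its start were higher in MMS. At 68881516 to 68882027 in intron 3 the control mean was -0.17 and the MMS mean 3.60, and in intron 4 the means were -0.17 and 3.86 at 68766253 to 68766528 and 0.75 and 3.86 at 68739711 to 68740032. The fourth, in intron 23 at 68630140 to 68630737, was higher in control, with 3.69 against 1.25. All 4 lay over 100 kb from any coding transcript start of Adcy2, the last one 369 kb away, the longest distance among the 90 DMRs.

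Adcy3 makes cyclic AMP in olfactory neurons and in neuronal primary cilia. It lies on chromosome 12 and had 3 DMRs. That at 4171717 to 4171940 in intron 2 had means of -0.17 in control and 3.69 in MMS, while that at 4199460 to 4199780 in intron 9 had 4.80 in control and 3.24 in MMS. The third, shown above in sequence, overlaps exon 16 of 22 at 4208525 to 4208700 and had 0.77 in control and 4.92 in MMS, or 1.71 and 30.3 reads. The DMRs in intron 9 and exon 16 also lie within the annotated span of Cenpo, so neither belongs to Adcy3 alone.

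Adcy1 is switched on by calcium and calmodulin in neurons and so joins both signals. Its 3 DMRs on chromosome 11 ran from higher in control in intron 2 (7082652 to 7083193, 4.90 in control and 2.50 in MMS) to higher in MMS in intron 4 (7119826 to 7120792, -0.17 and 4.02) and intron 5 (7135776 to 7136810, 1.15 and 4.71). The intron 4 DMR has 502 alignments in the genome, itself included, and its longest match elsewhere spans 270 bp. Adcy5 and Adcy6, cyclases that calcium inhibits, each had 1 DMR higher in control. In intron 6 of Adcy5 on chromosome 16 (35271082 to 35271948) the means were 5.71 and 4.66, and over exon 4 of 22 of Adcy6 on chromosome 15 (98600457 to 98601162) they were 4.98 and 3.53. Adcy7 had 1 over exon 11 of 28 on chromosome 8 (88315483 to 88316047), with 2.50 in control and 4.37 in MMS. Adcy4, Adcy8, Adcy9 and the soluble cyclase Adcy10 had none, although Adcy8 spans 225 kb.

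PKA subunits held 3 DMRs in 2 of 6 genes. Prkaca, a catalytic subunit, had one DMR on chromosome 8 from 83994049 to 83995606 over exon 9 of 10, with a control mean of 6.31 and an MMS mean of 5.21, or 79.3 and 37.0 reads. Its control mean was the next highest of the 90 after that of Pde11a. Prkar1b, a regulatory subunit found mainly in brain, had 2 on chromosome 5, both higher in MMS. Over exon 5 of 11 (139062935 to 139063380) the means were 3.65 and 5.49. In intron 2 (139113410 to 139113785) they were -0.17 and 3.17, at 269 bp from the start of an annotated coding transcript. Prkacb, Prkar1a, Prkar2a and Prkar2b had none.

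Cyclic nucleotide phosphodiesterases, leaving out the photoreceptor subunits, held 31 DMRs in 12 of 18 genes, 19 higher in MMS and 12 higher in control. They are long genes, and the density was 0.598 per 100 kb. Pde4d hydrolyses cyclic AMP alone and covers about 1500 kb of chromosome 13 with many alternative starts. It had 6 DMRs, 5 of them higher in MMS, at 0.399 per 100 kb. In 3 of the 5 the control mean was -0.17, with MMS means of 3.68 (108496383 to 108496625), 4.31 (108597669 to 108597914) and 3.24 (109804883 to 109805077). In the other pair the means were 0.96 and 4.20 (108693302 to 108694259) and 1.59 and 5.12 (109914036 to 109914936). The DMR at 108757494 to 108757831 went the other way, with 5.19 in control and 1.41 in MMS, a difference of -3.78 and the next largest toward control among the 90. The 4 nearest the gene's start lay at 3.1 to 20.5% of its length and the others at 90.1 and 97.4%, with a stretch of 1050 kb between them that held none.

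Pde10a and Pde11a hydrolyse both cyclic AMP and cyclic GMP, and each had 6 DMRs split 3 and 3. In Pde10a, an enzyme of striatal medium spiny neurons that lies on chromosome 17, the DMR at 8708463 to 8708881 in intron 1 had means of -0.17 in control and 4.41 in MMS, a difference of 4.58. Only 4337 bp away in the same intron, at 8703586 to 8704125, they were 4.86 and 3.10. The 4 others had 1.93 and 4.92 (8651737 to 8652193), 4.93 and 3.43 (8663511 to 8663786), 4.52 and 6.29 (8807485 to 8809421) and 5.38 and 3.88 (8933163 to 8933965).

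In Pde11a on chromosome 2 the 3 DMRs higher in control were wide and well covered in both groups. Their means were 6.33 and 5.38 at 76163302 to 76164172, 5.90 and 4.79 at 76213276 to 76214608, and 6.24 and 5.22 at 76332457 to 76333599. The first of these had the highest lower-group mean of the 90, 5.38, followed by a DMR of Camkk2 with 5.30. The 3 higher in MMS began from 1.06, 1.63 and -0.17 in control and reached 4.10, 4.37 and 3.27. The DMR at 76213276 lay 786 bp from the start of a coding transcript, deep inside the gene.

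Pde1a, which calcium and calmodulin activate, had 3 intron DMRs on chromosome 2, with means of 2.83 and 4.92 (79917223 to 79917652), 5.67 and 4.28 (79966639 to 79967083) and 2.27 and 4.40 (80021401 to 80021588). Pde5a, the cyclic GMP enzyme that sildenafil blocks, had 2, both higher in MMS. The upstream DMR, the only one of the 90 that lies wholly outside its gene, had -0.17 in control and 4.08 in MMS and ended 348 bp before the gene's start on chromosome 3. In intron 11 (122813601 to 122814643) the means were 4.00 and 5.64. Both DMRs of Pde3a, whose cyclic AMP hydrolysis cyclic GMP inhibits, were higher in control, with 3.93 and 0.20 at 141308450 to 141309111 on chromosome 6 and 5.51 and 4.12 at 141391806 to 141392389. The remaining enzymes with a DMR had 1 each. In Pde7b, specific for cyclic AMP, the DMR on chromosome 10 (20502705 to 20503325) had 5.38 in control and 1.42 in MMS, or 41.6 and 2.68 reads, the largest difference toward control at -3.96. Pde8a was also higher in control, with 5.97 and 4.80. Pde2a (4.47 and 6.23, in a DMR that another protein-coding gene, Gm45837, also overlaps), Pde4b (-0.17 and 3.08), Pde4c (2.94 and 5.86) and Pde8b (0.20 and 3.48) were higher in MMS. Pde1c was the longest signalling gene without a DMR, and Pde1b, Pde3b, Pde4a, Pde7a and Pde9a had none either. Of the 6 photoreceptor subunits only Pde6a had one, over exon 19 of 22 on chromosome 18 (61281749 to 61282012), with 1.82 in control and 4.33 in MMS.

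PKC isoforms held 23 DMRs in 8 of 9 genes, at 1.28 per 100 kb, with 10 higher in MMS and 13 higher in control. These genes span 30.9 to 490 kb. Over all genes the share with a DMR was 30.7% from 30 to 100 kb, 59.7% from 100 to 300 kb and 82.3% above that. Prkcq, at 129 kb, had none. Of the conventional isoforms, Prkca had 5 DMRs in introns on chromosome 11. The means were 5.55 and 4.37 at 107971315 to 107971952, 2.33 and 4.37 at 108031483 to 108031813, and 4.99 and 1.72 at 108248118 to 108248416. The last pair stood in intron 2 with 1061 bp between them, the smallest gap in any of the genes, and pointed in opposite directions, with 5.75 in control and 4.68 in MMS at 108308989 to 108309357 but 0.64 and 4.37 at 108310419 to 108310676. Prkcb had 1, with 4.85 and 3.21 in intron 2 on chromosome 7 (122381323 to 122381989).

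The diacylglycerol-dependent isoforms that need no calcium include Prkce, which had 7 DMRs over 490 kb of chromosome 17, the most of any signalling gene. Those higher in control had means of 4.11 and 1.24 (86234182 to 86234348), 4.47 and 2.27 (86286692 to 86286847, shown above), 6.20 and 5.11 (86325751 to 86327039) and 5.44 and 4.16 over exon 7 of 15 (86488073 to 86488671). Those higher in MMS had 0.23 and 4.31 (86305575 to 86306281), 1.03 and 4.10 (86307779 to 86308516) and -0.17 and 3.74 (86409750 to 86410308). The first pair of the latter was 1497 bp apart in intron 1 and lay between DMRs of the other direction. The DMR at 86286692 also overlaps an antisense transcript, 2010106C02Rik. In Prkcd the single DMR overlaps exon 7 of 18 on chromosome 14 (30605595 to 30605984), with 4.90 in control and 3.34 in MMS. Prkch had 1 of each direction in intron 1 on chromosome 12, with 4.88 and 3.32 (73593197 to 73593619) and -0.17 and 3.51 (73613678 to 73613920).

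The atypical isoforms act in cell polarity and need neither calcium nor diacylglycerol. Prkci on chromosome 3 had 3 DMRs in 57.2 kb. The outer DMRs were higher in MMS, with -0.17 and 3.19 at 31003460 to 31003917 and -0.17 and 3.40 at 31036246 to 31037078, and the middle one was higher in control, with 4.86 and 3.19 at 31009741 to 31009921. Prkcz had 1, with 0.20 in control and 3.47 in MMS in intron 4 on chromosome 4 (155332833 to 155333605).

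**Figure D3:**
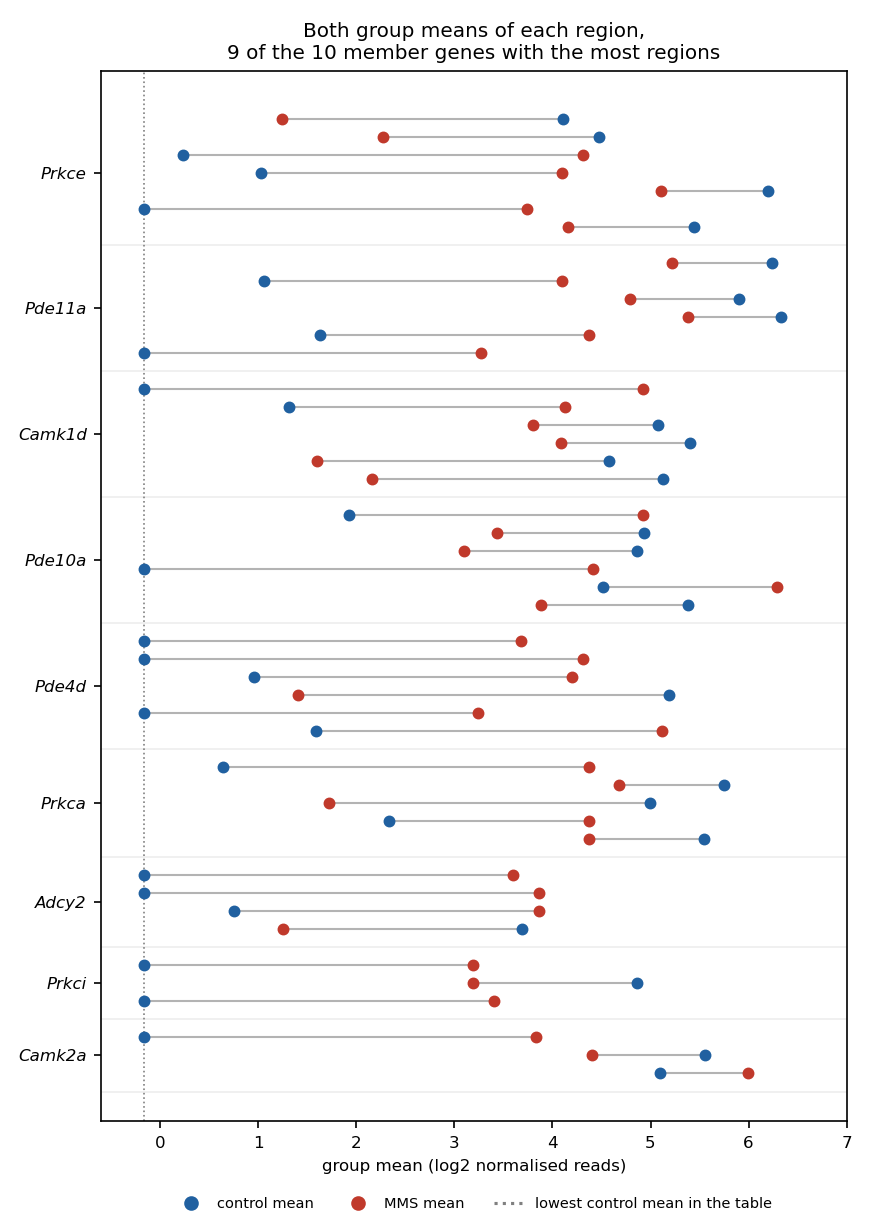
Control mean (blue) and MMS mean (red) in log2 normalised reads of each DMR in 9 of the 10 signalling genes with the most, ordered from each gene's start, with a dotted line at the lowest control mean, -0.17. Each of the 9 genes holds DMRs of both directions, and pairs with control higher sit mostly to the right, where both groups were well covered.

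CaM kinases held 14 DMRs in 5 of 10 genes, 7 in each direction, at 1.12 per 100 kb. Camk1d, a CaM kinase I, had 6 in introns on chromosome 2 and they were sorted along the gene. The 2 nearest its start were higher in MMS, with means of -0.17 and 4.92 at 5681085 to 5682046 and 1.31 and 4.13 at 5661054 to 5661297. The first of these had the largest difference toward MMS of all 90, 5.09, from 0.889 to 30.3 reads. The 4 further in were higher in control, with 5.08 and 3.80 (5594762 to 5595643), 5.40 and 4.09 (5576182 to 5576609), 4.58 and 1.60 (5501833 to 5502833) and 5.13 and 2.16 (5464701 to 5465772).

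Camk2a, the alpha subunit of CaM kinase II and a major protein of the postsynaptic density, had 3 DMRs on chromosome 18. In intron 1 (60932728 to 60933173) the means were -0.17 and 3.83. Over exon 8 of 19 (60956846 to 60957263) they were 5.56 and 4.40, and 1683 bp further on, in intron 11 (60958947 to 60959548), 5.10 and 5.99. The last difference, 0.89, was the smallest of the 90. Camk2b, which binds actin as well, had 2 on chromosome 11. That in an untranslated region (UTR) at 5970239 to 5970782 had -0.17 in control and 4.42 in MMS, and that in intron 3 at 6005703 to 6007199 had 3.58 and 1.20. Camk2d had 1 in intron 2 on chromosome 3 (126627613 to 126628094), with 0.20 and 3.38, where a tentative gene model, Gm43010, is also annotated. Camkk2, which phosphorylates CaM kinases I and IV and AMPK, had 2 on chromosome 5. The one at 122743531 to 122745882 overlaps exon 13 of 17 and the start of a coding transcript, and had means of 5.30 and 6.42, the highest MMS mean of the 90. That in intron 1 (122768463 to 122768854) had 4.41 and 1.93. Camk1, Camk1g, Camk2g, Camkk1 and Camk4 had none, and Camk4 spans 256 kb. The CaM kinase II inhibitors Camk2n1 and Camk2n2 and the related Camkv, all short genes, had none.

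Some genes were taken by their symbols although they lie outside these kinases and enzymes. The AMPK subunits, energy sensors that Camkk2 can activate, had 1 DMR in 7 genes, in intron 3 of Prkag2 on chromosome 5 (25008206 to 25008570), with 4.54 in control and 1.93 in MMS. Camkmt methylates calmodulin and had 3 on chromosome 17, with 2.18 and 4.25, 1.86 and 4.31, and 4.39 and 2.47. Pde4dip, a scaffold of the Golgi and centrosome, had 1 on chromosome 3 with -0.17 and 3.75. Prkcsh and Pde12 had none. Without the AMPK subunits and these 4 genes, 34 genes held 85 DMRs.

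Of the 37 genes with a DMR, 17 had 1 and 20 had more. In 17 of the 20 (85.0%) the DMRs pointed in both directions. Over all autosomal protein-coding genes with more than 1 this held for 761 of 1327 (57.3%). The share depends on how many DMRs a gene has. With 2 DMRs it was 3 of 6 genes against 44.2% of all genes, with 3 it was 7 of 7 against 67.3%, and with 4 or more 7 of 7 against 88.9%. The exceptions were Pde5a and Prkar1b, with both DMRs higher in MMS, and Pde3a, with both higher in control. Neighbouring DMRs of the same gene made 53 pairs with a median gap of 46.0 kb, and 31 pairs (58.5%) had opposite directions. Over all autosomal protein-coding genes 1128 of 2475 pairs (45.6%) did. Of the 10 pairs under 10 kb apart 7 were opposite, and of the 486 such pairs over all genes 233 (47.9%). All 14 genes with 3 or more DMRs held both directions.

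**Figure D4:**
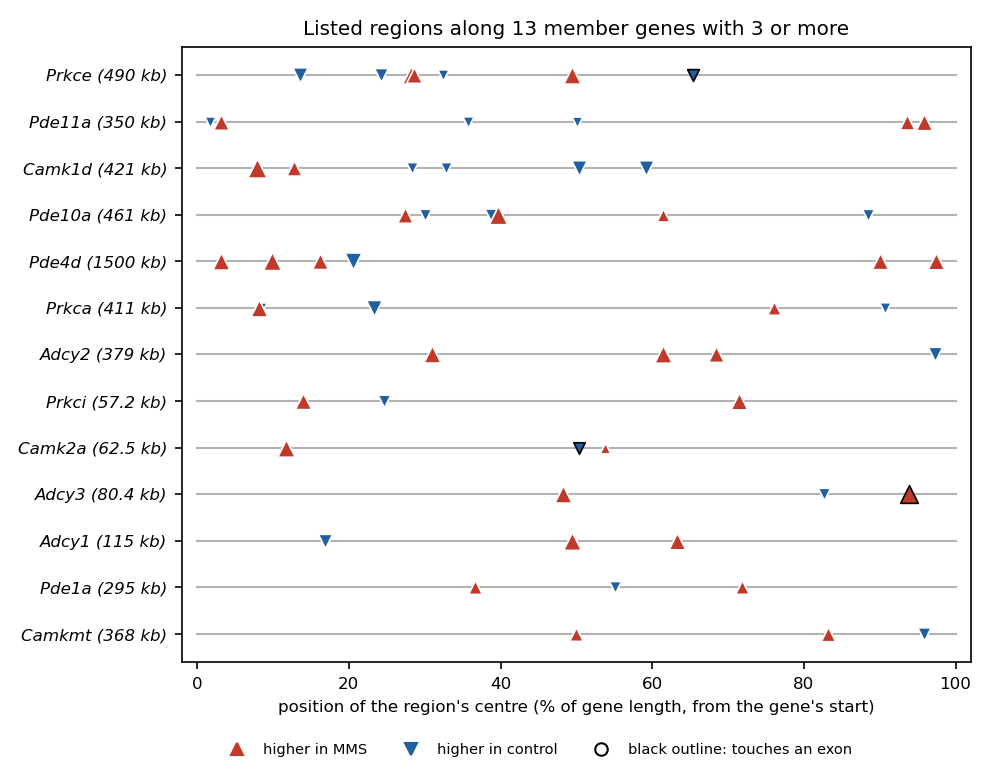
Centre of each DMR along 13 of the 14 signalling genes with 3 or more, as percent of gene length from the gene's start, with red triangles for higher in MMS, blue for higher in control, marker area growing with the size of the difference and a black outline where an exon is touched. Both colours appear in all 13 genes, and the 2 colours are separated along Camk1d and interleaved along Prkce.

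Introns held 77 of the 90 DMRs (85.6%), coding exons 11, a UTR 1 and the upstream window 1. Of the intron DMRs 43 were higher in MMS and 34 higher in control, and of the exon DMRs 5 and 6. The median distance to the nearest start of a coding transcript of the gene was 38.2 kb, with 16 DMRs within 5 kb and 1 across one. These shares and distances were not measured over all genes, which are shorter. Just outside the 1000 bp window stood DMRs 2150 bp upstream of Pde1a (-0.17 in control and 3.82 in MMS), 2424 bp upstream of Pde3a (-0.17 and 3.93), 2955 bp upstream of Prkca (5.14 and 3.76) and 4814 bp upstream of Camk2b (-0.17 and 4.01). They are not counted. Another annotated gene overlapped 6 of the 90, and in 4 of these it was a protein-coding one.

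All 12845 autosomal DMRs, the 90 included, served as the comparison for sequence. Of these 6453 lay over protein-coding genes, so the set was not limited to such genes as the 90 are. The DMRs of the signalling genes resembled that set. Their median width was 541 bp against 544 bp, their GC content 48.8% against 47.4%, and they had 1.46 CpG per 100 bp against 1.32. Soft-masked repeat took a median of 15.6% of their bases against 20.6%, and more than 50% of the bases in 10 DMRs (11.1% against 17.3%). All 90 held at least 1 CpG, and 308 of the other autosomal DMRs held none. The full cAMP response element, TGACGTCA, the palindrome that CREB binds, was in 0 of the 90 sequences and in 93 (0.724%) of all autosomal ones. Its short form TGACG, searched on both strands and contained in the full one, was in 23 (25.6%) against 22.1%. These are letter matches in the reference and say nothing of binding.

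**Figure D5:**
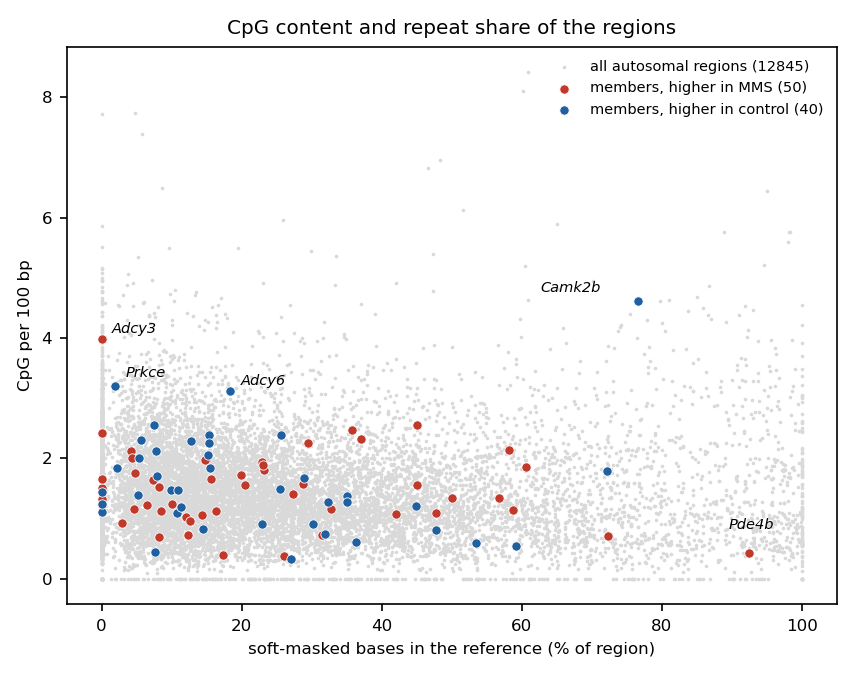
CpG sites per 100 bp against the soft-masked share of each DMR in percent, with signalling genes in red (50 higher in MMS) and blue (40 higher in control) over all 12845 autosomal DMRs in grey. Camk2b, Adcy3, Prkce and Adcy6 lie above 3 CpG per 100 bp, Camk2b with 76.6% repeat, and both colours overlap over the rest of the range.

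The richest in CpG was the intron 3 DMR of Camk2b, with 69 sites in 1497 bp or 4.61 per 100 bp, above 99.5% of the autosomal DMRs. Exon 16 of Adcy3 had 3.98, the Prkce DMR shown above 3.21 and exon 4 of Adcy6 3.12. Of these Adcy3 was higher in MMS and the others in control. Over all 90 the median was 1.46 per 100 bp in both directions. Aligned to the genome with BLAST at a minimum of 100 bp and 95% identity, 77 DMRs matched only themselves, of which 43 were higher in MMS and 34 in control. These are not the 77 DMRs in introns, although the counts are equal. Another 5 had 2 to 10 alignments and 8 had more than 10, each count with the DMR itself. These 8 were in Prkcz (1296), Prkci (904, at 31036246), Camk2a (799, in intron 1), Prkar1b (759, in intron 2), Camk2b (560, in intron 3), Adcy1 (502, in intron 4), Prkag2 (193) and Pde4c (38). Only the Camk2b DMR has another match over more than 90% of its length, and how its reads were placed was not examined. The part of such repeats in the differences was not tested. Only the 90 DMRs were aligned, so no share over all autosomal DMRs can be set beside these counts.

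The other genes of these routes were given by lists, 64 genes in all. Of these 29 held 48 DMRs, of which MMS was higher in 27 and control in 21, at 0.597 per 100 kb. Over all autosomal protein-coding genes the density was 0.65 per 100 kb, 20.1% of genes held a DMR and 62.0% of their DMRs were higher in MMS, with gene lengths not matched. Among 16 G protein subunits and cyclic AMP effectors, 6 genes held 10 DMRs, with MMS higher in 3 and control in 7, and Rapgef4, an exchange factor that cyclic AMP activates directly, had 4 of the 10, with MMS higher in 1 and control in 3. Of 12 A-kinase anchoring proteins, which tether PKA, 6 held 8 DMRs, 4 in each direction. CREB and its coactivators had 2 DMRs in 8 genes, in Crebbp and Crtc3, both higher in MMS, and none in Creb1. Calmodulin and calcineurin genes had 2 in 8, in Calm3 and Ppp3r1, also both higher in MMS. The phospholipase C, IP3 receptor, diacylglycerol kinase and PKC substrate genes, which lie just upstream and downstream of PKC, held 26 DMRs in 13 of 20 genes, 16 higher in MMS and 10 in control. Plcb4, a phospholipase C that makes diacylglycerol, had 5 and Dgkh, a kinase that removes it, had 4.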

How the data were processed

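MeDIP libraries of 3 control and 3 MMS pools were sequenced by the authors on the Ion Proton and aligned to mm10 with Torrent Suite. Broad peaks were called with MACS2 2.1 over pooled input, with the human genome size setting listed in the methods, and IgG was subtracted. The authors compared the groups with DiffBind and DESeq2. The deposited log2 values are the authors' means of normalised reads per group. The columns named untreated and treated were read as control and MMS. The deposited mean over all libraries, log2 difference, p-value and false discovery rate belong to the authors' own comparison and were not used. Inputs and the IgG library carry the same antibody in the labels as the meDIP libraries and were not used on their own.

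DMRs were assigned to genes by any overlap with GENCODE vM21 gene bodies plus 1000 bp upstream. All 12949 DMRs fitted the GRCm38 chromosomes, and 500 of 500 RefSeq promoters were read identically from it. Exon and intron numbers are those of 1 transcript model per gene. A group mean within 0.5 (log2) of the lowest in the table was counted as at its lowest value. The members, gene lists and rules were chosen with earlier results of these data known. Except for 1 gene that is only in the counts and not reported here by itself, every gene with a DMR is named and both means are given for the 10 genes with the most DMRs (ties by density per 100 kb), for exon, UTR and upstream DMRs, and for the extremes of difference, coverage and CpG; values of the other DMRs were added after they were seen. The deposited table gives neither library depth nor replicate error, and DMRs are not replicates, so no test was run. The overlap step was tested on simulated data. Alternatives changed the gene window, the overlap, the minimum difference and width, the repeat share, the lowest values and the gene list. BLAST 2.17.0 and Python 3.11.15 were used, with pandas 2.3.3, numpy 2.4.6, scipy 1.17.1 and matplotlib 3.10.9.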

Additional observations from a re-analysis of the deposited data

How the results depend on the processing

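The 6 summary values (genes with a DMR, DMRs, percent higher in MMS, percent with control at its lowest value, median difference and percent in introns) were each recomputed under 10 alternatives, and the share with control at its lowest value under 2 more. Of the 62 recomputed values 53 kept their sign and stayed within 1.5 times for a count or within the 95% interval for a share or median. Asking for the centre or at least 50% of a DMR inside the window changed no value. Most other alternatives keep a part of the same DMRs. Much of this agreement was therefore fixed in advance. With a minimum log2 difference of 2, 56 DMRs were left, of which 75% were higher in MMS (80.5% over all autosomal DMRs). Of the 56, 42.9% had control at its lowest value (47.0% over all autosomal DMRs) and 92.9% were in introns. The median difference was 3.21 in place of 1.77, and over all autosomal DMRs 3.3 in place of 2.41. With both group means above their lowest values, 40.0% were higher in MMS (45.1% over all autosomal DMRs) and 0% had control at its lowest value. The median difference changed sign to -1.1, and over all autosomal DMRs it changed sign too, from 2.41 to -1.07. Among DMRs of at least 300 bp 49.3% were higher in MMS, within the interval of the main share but under 50%. The median difference, taken over both directions, changed sign with it to -0.95. Values over all autosomal DMRs of that width were not measured. The filter on lowest values took out 24 DMRs with MMS higher and 1 with control higher, so its shifts in share and median follow from how it was built. The shift at 300 bp came from a separate filter.

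No paired analysis was possible because the table holds group means with no column per library. For the same reason no library was left out, and no spread was computed for any single difference.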
